A study of Homo sapiens with 6 samples.

Results

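Amino acids enter and leave fibroblasts through carriers of the solute carrier (SLC) superfamily. The 10 carriers described here were SLC7A5, SLC3A2, SLC7A11, SLC7A1, SLC38A1, SLC38A2, SLC1A4, SLC1A5, SLC6A9 and SLC43A1, chosen by gene symbol as plasma membrane carriers of neutral and cationic amino acids, glycine and cystine. The choice was made with earlier results of these data known. All 10 had a row among the 23754 features of the count table, and all 10 passed the filter on low counts. They were measured by RNA-seq in IMR-90 cells, a line of human fetal lung fibroblasts, carrying a lentiviral, doxycycline-inducible hairpin (sh-2) against the zinc finger gene ZNF469. The DOX+ group (labelled Sh-ZNF469, ZNF469-knockdown) received 2 µg/mL doxycycline for 4 days and the DOX– group (labelled Control) was the same puromycin-selected line without doxycycline, although its genotype is labelled wild-type. Each group had 3 libraries, which the submitted design calls technical replicates, so p-values measure the spread between these libraries and may hold no variation between independent cultures. Both doxycycline and the hairpin differed between the groups and cannot be told apart.

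These carriers divide the work of amino acid supply. SLC7A5 (LAT1) and SLC7A11 (xCT) are light chains that reach the cell surface joined to the heavy chain SLC3A2 (CD98hc, 4F2hc); the former exchanges large neutral amino acids such as leucine, the latter exports glutamate for cystine, the precursor of cysteine in glutathione. SLC1A5 (ASCT2) and SLC1A4 (ASCT1) exchange small neutral amino acids with sodium, SLC38A1 and SLC38A2 (SNAT1 and SNAT2) accumulate glutamine and alanine with sodium, SLC7A1 (CAT-1) carries arginine and lysine, SLC6A9 (GlyT1) takes up glycine, and SLC43A1 (LAT3) facilitates the passage of branched-chain amino acids. Several of these genes are known targets of ATF4, a transcription factor whose translation rises when amino acids run short, and glycine is the most abundant residue of collagen.

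Total counts ranged from 34057675 to 36120260 per library. ZNF469, the targeted gene, was at 118, 112 and 126 CPM (counts relative to the TMM-scaled library size) in DOX– replicates 1, 2 and 3 and at 80.4, 80.4 and 79.6 CPM in the DOX+ replicates, so that 67.5% remained. Of 9 fibroblast markers, all 9 were detected, and among the markers of other cell types 2 of 4 epithelial, 2 of 4 endothelial and 1 of 3 leukocyte genes were at 0 in every library. Summed FPKM (fragments per length and depth, as deposited) of the fibroblast markers was 8495 to 8557 in DOX– and 7277 to 7364 in DOX+ libraries. At an adjusted p under 0.05 in edgeR, 5 of the 9 fell (COL1A1, COL1A2, COL3A1, DCN and LUM), against 0.715% of all features. Their part in the results below was not tested. The markers of epithelial cells summed to at most 0.223 FPKM, those of endothelial cells to at most 0.135 FPKM and those of smooth muscle to at most 0.685 FPKM. The leukocyte markers summed to 29.3 to 32.4 FPKM in DOX– and 29.5 to 32.2 FPKM in DOX+ libraries, nearly all of it CD68, a lysosomal protein, which was not called (log2 fold change −0.06, edgeR adjusted p = 0.609), whereas PTPRC, which defines leukocytes, was at most at 0.0266 FPKM. In bulk RNA, fewer cells that express a carrier and less of its RNA per cell cannot be told apart. On the first principal component DOX+ replicate 2 scored 32.8, whereas the other 5 libraries scored from −12.6 to 0.524, and results that rest on that library are given with and without it.

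Of the 10 carriers, 4 fell in DOX+ cells and 0 rose at an adjusted p under 0.05 in edgeR's quasi-likelihood test, in a comparison where 0.715% of the 13991 features tested were called lower, 0.4% higher and 1.12% in either direction. The 4 were SLC6A9, SLC7A5, SLC3A2 and SLC1A5. Because the carriers were chosen with earlier results of these data known, their counts beside the shares of all features are no independent test. Neither DESeq2 nor limma-voom called any carrier higher, and 0 were higher at an unadjusted p under 0.05, against 7.31% of all features. On the lower side, at the same unadjusted p, 8 of the 10 were lower, against 7.69% of all features, and the same 8 were lower in each DOX+ library than in each DOX– library, against 10.6% of all features. In 0 carriers was each DOX+ library above each DOX– library, against 9.73% of all features. The median log2 fold change of the 10 was −0.27, beside −0.0019 over all features tested. No carrier reached an absolute log2 fold change of 1, the size the study required of a changed gene. Among all 13991 features tested, 6 were called with a change of that size, so its absence does not set the carriers apart. The paper reports many more changed genes at its own threshold. The reason for that difference was not tested.

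**Figure D1:**
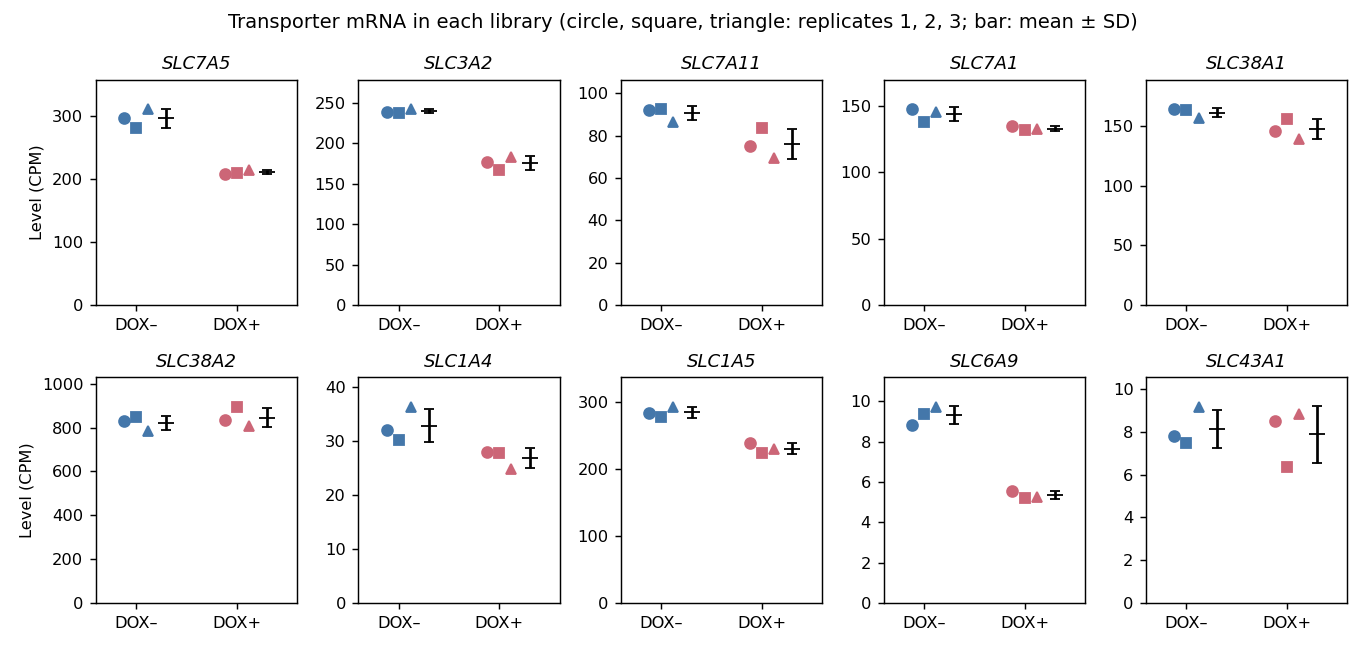
Level of each carrier in CPM (TMM-scaled, linear axes from 0) in 3 DOX– (blue) and 3 DOX+ (red) libraries, with the mean and SD in black. The groups are apart for 8 carriers and overlap for SLC38A2 and SLC43A1.

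The carriers differed widely in level, which was compared per transcript length in the authors' FPKM. In DOX– cells SLC38A2 was the highest at 158 ± 8.25 FPKM (SD, n = 3), followed by SLC3A2 at 111 ± 1.94, SLC1A5 at 89.8 ± 1.45 and SLC7A5 at 58.8 ± 2.51 FPKM. SLC38A1 (18.4 ± 0.704 FPKM) and SLC7A1 (17.6 ± 0.631) came next and overlapped between libraries, as did the lowest pair, SLC43A1 (2.94 ± 0.324) and SLC6A9 (2.82 ± 0.0692). SLC7A11 (8.44 ± 0.395 FPKM) and SLC1A4 (6.49 ± 0.565) stood between them. The ranks were the same when CPM was divided by the length of the canonical transcript. In DOX+ cells SLC38A2 was at 167 ± 9.94 FPKM (SD, n = 3), SLC3A2 at 82.2 ± 1.74, SLC1A5 at 74.5 ± 1.90 and SLC7A5 at 43.0 ± 0.825. At the other end SLC6A9 was at 1.70 ± 0.0682 FPKM, under SLC43A1 at 2.92 ± 0.487 FPKM in DOX+ cells. Summed over the 10 carriers, FPKM was 474 ± 3.56 in DOX– libraries and 418 ± 9.37 in DOX+ libraries (SD, n = 3). SLC38A2 alone took 33.3% ± 1.55 of that sum in DOX– cells and 39.9% ± 1.5 in DOX+ cells. Without SLC38A2 the sum was 316 ± 5.76 FPKM in DOX– and 251 ± 2.06 FPKM in DOX+ libraries.

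**Figure D2:**
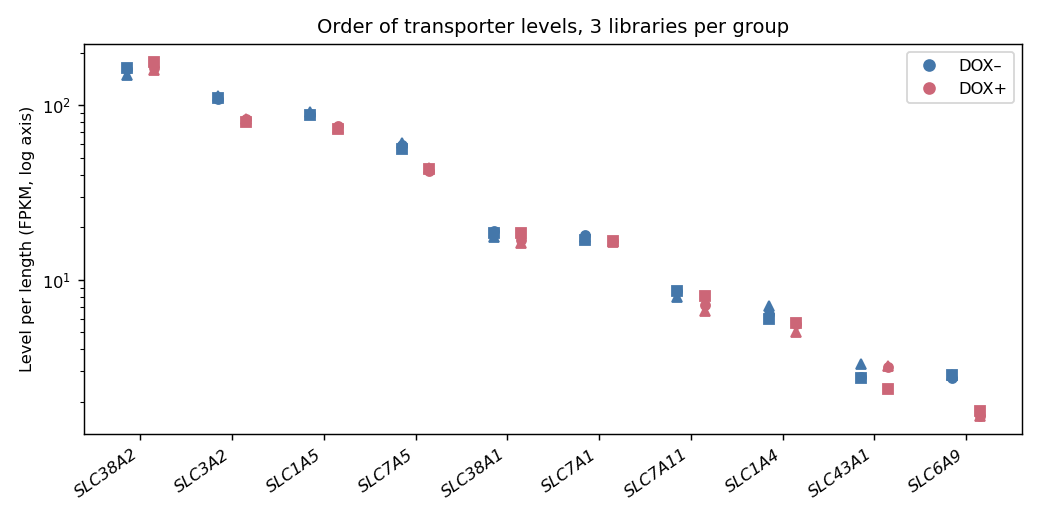
FPKM of each carrier (log axis) in 3 DOX– (blue) and 3 DOX+ (red) libraries, ordered by the DOX– mean, with circles, squares and triangles for replicates 1, 2 and 3. SLC38A2 is at the top in both groups, and SLC6A9 is below SLC43A1 in every DOX+ library.

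The heavy chain SLC3A2 and its leucine-carrying partner SLC7A5 fell to a similar degree. SLC7A5 (ENSG00000103257) lies on the minus strand of chromosome 16 of GRCh38 from 87830023 to 87869507. Its level was 298, 282 and 311 CPM in the DOX– replicates and 209, 210 and 216 CPM in the DOX+ replicates. All 3 DOX+ libraries were below the DOX– libraries, and the spread within each group was small beside the gap between them. The log2 fold change was −0.49 (standard error, SE, 0.0408, edgeR adjusted p = 3.18e-05), so that 71.2% of the DOX– level remained, with a 95% interval of 67.0% to 75.7%. It ranked 10 of 13991 features by p-value.

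SLC3A2 (ENSG00000168003), on the plus strand of chromosome 11 from 62856004 to 62888880, was at 238, 238 and 242 CPM in the DOX– libraries and 177, 167 and 183 CPM in the DOX+ libraries. These groups did not overlap either. Its log2 fold change was −0.45 (SE 0.0400, edgeR adjusted p = 5.32e-05), which left 73.4% (95% interval 69.1% to 77.9%). Both genes kept an adjusted p under 0.05 in all 18 alternative analyses. Within libraries, the ratio of SLC7A5 to SLC3A2 FPKM was 0.532 ± 0.0187 in DOX– and 0.523 ± 0.0165 in DOX+ cells (SD, n = 3), and these ratios overlapped.

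SLC7A11 (ENSG00000151012), the cystine carrier and another partner of SLC3A2, lies on the minus strand of chromosome 4 from 138164097 to 138242349. It was at 92.3, 92.5 and 86.7 CPM in DOX– libraries and 75.2, 83.6 and 69.5 CPM in DOX+ libraries. The highest DOX+ value, in replicate 2, came close to the lowest DOX– value. The log2 fold change of −0.25 (SE 0.0601) missed the threshold with an edgeR adjusted p of 0.0723, and its 95% interval ran from −0.38 to −0.12. Without DOX+ replicate 2, the library set apart on the first principal component, it was −0.32 (edgeR adjusted p = 0.00902), whereas over the 6 analyses that left out 1 library the adjusted p reached 0.226. It was called lower in 6 of 18 alternatives: the one without DOX+ replicate 2, DESeq2 (adjusted p = 0.00540), no filter on low counts (0.0223), the replicate block (0.0219), and the length trend (0.0152) or the GC trend (2.13e-04) removed.

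SLC6A9, the glycine transporter, had the largest log2 decrease of the 10. The gene (ENSG00000196517) spans 43991500 to 44031467 on the minus strand of chromosome 1. With 299, 330 and 339 counts in DOX– and 198, 185 and 191 counts in DOX+ libraries, it was also among the least abundant. In CPM it was at 8.83, 9.38 and 9.72 in DOX– and 5.55, 5.22 and 5.27 in DOX+ libraries, without overlap. The log2 fold change was −0.80 (SE 0.110, edgeR adjusted p = 0.00275) and 57.5% remained (95% interval 48.7% to 67.7%). It kept an adjusted p under 0.05 in the 17 alternatives that gave one; DESeq2 filtered it from adjustment at an unadjusted p of 9.35e-08. Its 3′ end overlaps CCDC24 on the plus strand (43991359 to 43996528), and the strand setting of the counting is not given in the sources used here, so that reads of the overlap cannot be told apart. CCDC24 itself had a log2 fold change of 0.04 (SE 0.193, edgeR adjusted p = 0.948).

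The sodium-dependent exchangers SLC1A5 and SLC1A4 were both lower, of which SLC1A5 passed the threshold. SLC1A5 (ENSG00000105281; chromosome 19, minus strand, 46774883 to 46788594) was at 283, 277 and 292 CPM in DOX– libraries and 238, 223 and 229 CPM in DOX+ libraries. The groups were apart by more than the range of either. Its log2 fold change was −0.30 (SE 0.0379, edgeR adjusted p = 0.00126), so that 81.0% remained (95% interval 76.5% to 85.7%), and it was called in all 18 alternatives. SLC1A4 (ENSG00000115902; chromosome 2, plus strand, 64988477 to 65023865), a less abundant transcript, was at 31.9, 30.2 and 36.3 CPM in DOX– and 28.0, 27.6 and 24.7 CPM in DOX+ libraries. The values did not overlap, and DOX– replicate 3 stood above the rest. The log2 fold change of −0.29 was close to that of SLC1A5, but with an SE of 0.0756 its edgeR adjusted p was 0.0871, and it passed 0.05 in 2 of 18 alternatives, DESeq2 (0.0302) and no filter on low counts (0.0440). The log2 ratio of SLC1A5 to SLC1A4 counts differed between groups by −0.013, with SDs of 0.0963 and 0.101 in DOX– and DOX+ libraries.

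The sodium-coupled SLC38A1 and SLC38A2, close together on the minus strand of chromosome 12, were not called. SLC38A2 (ENSG00000134294; 46358188 to 46372773) was at 831, 848 and 783 CPM in DOX– libraries and 835, 895 and 808 CPM in DOX+ libraries. These values overlapped throughout. Its log2 fold change was 0.04 (95% interval −0.04 to 0.13, edgeR adjusted p = 0.651) and became −0.03 once the trend of the counts on GC content was removed (edgeR adjusted p = 0.481). Without DOX+ replicate 2 it was 0.0028 (edgeR adjusted p = 0.985). SLC38A1 (ENSG00000111371; 46183063 to 46270017) was at 164, 163 and 157 CPM in DOX– and 146, 156 and 139 CPM in DOX+ libraries. The gap between the groups was narrow, with DOX+ replicate 2 just under DOX– replicate 3. Its log2 fold change of −0.13 (95% interval −0.23 to −0.03) had an edgeR adjusted p of 0.202, and it was called in 1 of 18 alternatives, with the GC trend removed (−0.18, adjusted p = 0.00980). Without DOX+ replicate 2 the log2 fold change of SLC38A1 was −0.175 (edgeR adjusted p = 0.106).

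SLC7A1 (ENSG00000139514; chromosome 13, minus strand, 29509414 to 29595688), the carrier of arginine and lysine, was at 147, 138 and 146 CPM in DOX– libraries and 135, 131 and 132 CPM in DOX+ libraries. The groups were apart by less than the range of the DOX– libraries. The log2 fold change was −0.11 (95% interval −0.20 to −0.02, edgeR adjusted p = 0.215), called in 0 of 18 alternatives. SLC43A1 (ENSG00000149150; chromosome 11, minus strand, 57484534 to 57515780) was at 7.80, 7.51 and 9.17 CPM in DOX– and 8.49, 6.38 and 8.84 CPM in DOX+ libraries. DOX+ replicate 2 held the lowest value, and the groups overlapped. At 226 to 320 counts per library its 95% interval was wide, from −0.35 to 0.26 around a log2 fold change of −0.05 (edgeR adjusted p = 0.917), and its sign turned without DOX+ replicate 2 (0.09), without DOX– replicate 3 (0.05) and with the GC trend removed (0.0041).

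**Figure D3:**
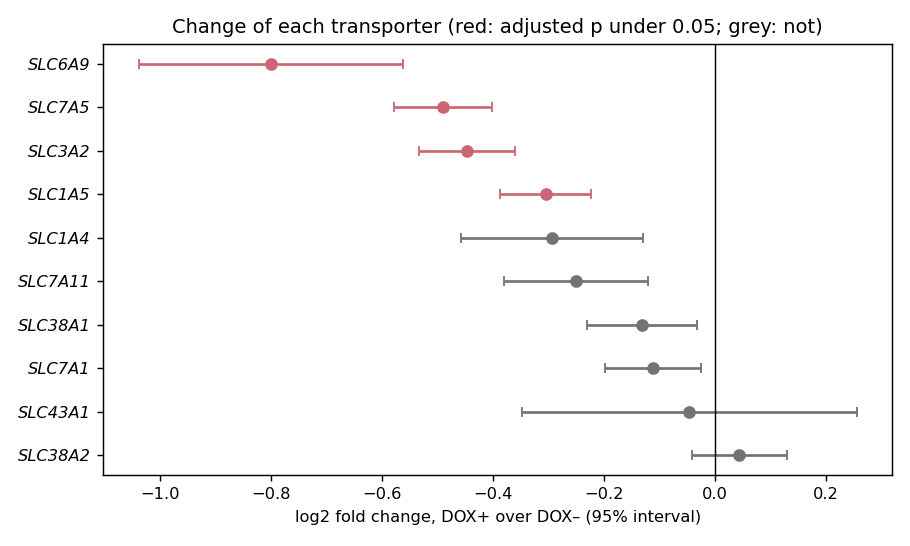
Log2 fold change of each carrier, DOX+ over DOX–, from edgeR with its 95% interval, in order of size. Intervals of 8 carriers lie below 0, of which the 4 in red (SLC6A9, SLC7A5, SLC3A2, SLC1A5) have an adjusted p under 0.05.

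Ratios between carriers in the same library do not depend on how libraries are scaled. For 7 pairs, chosen with the fold changes known, the log2 ratio of counts was compared between groups by a two-sided exact permutation test whose smallest possible p is 0.1 for 3 libraries against 3. The ratio of SLC7A5 to SLC38A2 was lower in DOX+ cells by 0.53 on the log2 scale, at −1.48, −1.59 and −1.33 in DOX– and −2.0, −2.09 and −1.91 in DOX+ libraries. SLC7A5 to SLC7A1 differed by −0.38, SLC1A5 to SLC38A2 by −0.35 and SLC38A2 to SLC38A1 by 0.18. In these 4 pairs the groups did not overlap (exact permutation p = 0.1 each, 0.175 adjusted over the 7 pairs). SLC38A2 to SLC38A1 was the tightest, at 2.34, 2.38 and 2.32 in DOX– and 2.51, 2.52 and 2.54 in DOX+ libraries. The other 3 ratios overlapped between groups: SLC7A5 to SLC3A2 differed by −0.04 (exact permutation p = 0.5), SLC7A11 to SLC3A2 by 0.19 (exact permutation p = 0.3) and SLC1A5 to SLC1A4 by −0.013 (exact permutation p = 1).

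**Figure D4:**
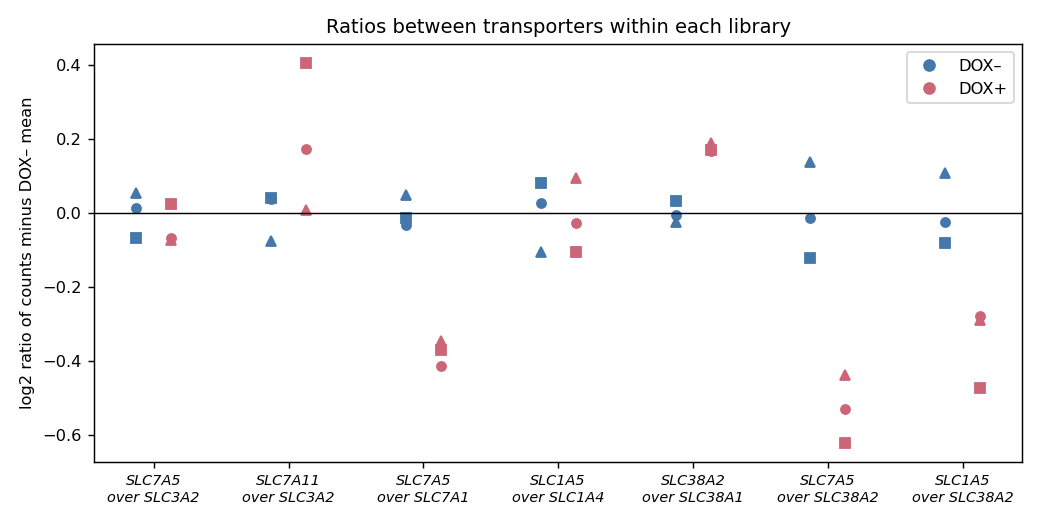
Log2 ratio of counts of 7 carrier pairs within each library, minus the DOX– mean of that pair, in 3 DOX– (blue) and 3 DOX+ (red) libraries, with circles, squares and triangles for replicates 1, 2 and 3. The groups are apart for the pairs of SLC7A5 with SLC7A1, SLC38A2 with SLC38A1, and SLC7A5 or SLC1A5 with SLC38A2.

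Upstream sequence is shown for the 4 genes that fell, so that it can be set beside their changes. RefSeq windows on GRCh38.p14, from 250 bases before to 50 bases after a start site, were found for 9 of the 10 carriers, in 16 windows; SLC7A11 had no entry. The 150 bases before the first listed start site of each gene are given 5′ to 3′ on the strand of the gene. Capitals mark matches to 3 short motifs searched on both strands: TGATGNAA, the core of the amino acid response element bound by ATF4 with its partners; CACGTG, the E-box bound by MYC and related factors; and TGACNNNGC, the core of the antioxidant response element bound by NFE2L2.
SLC7A5, chr16:87869508-87869657, - strand: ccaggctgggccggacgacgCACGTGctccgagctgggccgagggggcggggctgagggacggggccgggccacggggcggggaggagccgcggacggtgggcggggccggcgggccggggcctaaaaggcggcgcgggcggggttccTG
SLC3A2, chr11:62881549-62881698, + strand: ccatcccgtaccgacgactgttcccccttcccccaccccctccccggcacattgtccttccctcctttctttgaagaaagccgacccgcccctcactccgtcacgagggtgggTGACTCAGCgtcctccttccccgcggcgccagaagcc
SLC1A5, chr19:46788595-46788744, - strand: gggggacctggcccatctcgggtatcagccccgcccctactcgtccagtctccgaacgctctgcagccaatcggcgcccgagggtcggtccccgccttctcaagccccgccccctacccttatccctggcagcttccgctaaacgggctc
SLC6A9, chr1:44031463-44031612, - strand: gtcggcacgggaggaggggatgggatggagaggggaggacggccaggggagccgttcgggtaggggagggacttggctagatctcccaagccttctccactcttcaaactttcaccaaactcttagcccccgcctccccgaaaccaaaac

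The SLC7A5 stretch held an E-box, and its last capitals begin an antioxidant element core that runs across the start site; the SLC3A2 stretch held an antioxidant element core, and those of SLC1A5 and SLC6A9 held no match. TGATGNAA was found in 5 of the 16 windows, 1 each of SLC1A4, SLC3A2, SLC38A1, SLC7A1 and SLC1A5, and in 3.62% of 35116 RefSeq windows. Counted from the start site, the match began at base −7 in SLC1A4, 38 in SLC3A2, −4 in SLC38A1, 8 in SLC7A1 and −97 in SLC1A5. The matches are shown with 10 bases on each side where the window allows, in capitals. Those of SLC1A4 and SLC3A2 are on the opposite strand, so that the reverse complement of the motif is seen.
SLC1A4, chr2:64989382-64989409, + strand: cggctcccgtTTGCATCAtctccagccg
SLC3A2, chr11:62881726-62881748, + strand: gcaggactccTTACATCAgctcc
SLC38A1, chr12:46266503-46266530, - strand: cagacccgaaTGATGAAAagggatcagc
SLC7A1, chr13:29595664-29595691, - strand: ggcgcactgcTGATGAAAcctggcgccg
SLC1A5, chr19:46784894-46784921, - strand: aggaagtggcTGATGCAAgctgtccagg

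The window of SLC1A5 with this match belongs to the third of its listed start sites. SLC3A2 and SLC1A5 were among the 4 genes that fell, whereas SLC1A4, SLC38A1 and SLC7A1 were not called. CACGTG was found in 3 of the 16 windows, of SLC7A5, SLC1A5 and SLC43A1, against 7.26% of all RefSeq windows. TGACNNNGC was found in 4 of the 16, of SLC7A5, SLC3A2, SLC7A1 and SLC1A5, against 13.3%. Neither SLC6A9 nor SLC38A2 had a match to any of the 3 motifs in its window. Sequence outside the windows was not searched for any carrier.

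Other amino acid carriers were taken from lists of 29 plasma membrane, 7 lysosomal and 13 mitochondrial genes. Of these 49, 31 passed the filter on low counts, some with few counts, as SLC38A3 with 0 to 21 per library. EdgeR called 0 in either direction, which is near the 1.12% of all features called. At an unadjusted p under 0.05, 5 were lower and 2 higher, against 7.69% and 7.31% of all features. Limma-voom called 0 and DESeq2 called 1, SLC6A6, higher. Their median log2 fold change was −0.03, with 19 below 0 and 12 above. SLC6A6, which carries taurine and not a protein-building amino acid, had the smallest p among them, with a log2 fold change of 0.19 (SE 0.0461, edgeR adjusted p = 0.0708), and every DOX+ library was above every DOX– library. It was called higher by DESeq2, without a filter on low counts, with library size scaling and with the GC trend removed. SLC7A6, another light chain that pairs with SLC3A2, had a log2 fold change of 0.09 (SE 0.0880, edgeR adjusted p = 0.687), and SLC7A2, a second carrier of cationic amino acids, one of −0.14 (SE 0.0487, edgeR adjusted p = 0.189). SLC38A5, a glutamine and serine carrier, was at 0.03 (SE 0.122, edgeR adjusted p = 0.945).

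Among the lysosomal carriers, SLC36A1, an exporter of small neutral amino acids, had a log2 fold change of −0.16 (SE 0.0574, edgeR adjusted p = 0.209), and SLC36A4, of the same family, one of 0.16 (SE 0.0787, edgeR adjusted p = 0.360). Among the mitochondrial carriers, SLC25A13, an aspartate-glutamate exchanger, was at −0.35 (SE 0.0968, edgeR adjusted p = 0.111), and SFXN1, which carries serine into mitochondria, at 0.12 (SE 0.0433, edgeR adjusted p = 0.208). With the GC trend removed SLC25A13 and SLC7A2 were called lower (edgeR adjusted p = 0.0487 and 0.0464). SLC25A13 is named after its values were seen.

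The genes that sense amino acids for mTORC1 and GCN2, with 22 of 23 tested, had a median log2 fold change of −0.03. FLCN, which acts with the Rag GTPases, was the 1 called, with a decrease of 0.28 (edgeR adjusted p = 0.0261). Of all features tested, 0.715% were called lower. EIF2AK4, the kinase GCN2 that senses uncharged tRNA, was at 0.07 (SE 0.0359, edgeR adjusted p = 0.352), and RRAGA, a Rag GTPase, at 0.01 (SE 0.0396, edgeR adjusted p = 0.920).

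Of 10 transcriptional regulators of the amino acid response, 9 were below 0 and 3 fell, with a median of −0.23. Over all 13991 features tested, 7087 were below 0 and 0.715% were called lower. This list was also chosen with earlier results of these data known, so its counts are no independent test. TRIB3, a pseudokinase induced by ATF4, fell by 0.69 (edgeR adjusted p = 0.000747), NUPR1, a stress-induced chromatin protein, by 0.51 (edgeR adjusted p = 4.05e-05), and CEBPB, a bZIP factor that pairs with ATF4, by 0.26 (edgeR adjusted p = 0.00557). The mRNA of ATF4 itself, whose output is set largely by translation, had a log2 fold change of −0.14 (SE 0.0351, edgeR adjusted p = 0.0795). In FPKM the groups overlapped for NUPR1 (20.4 ± 3.22 in DOX– and 17.6 ± 2.36 in DOX+ libraries, SD, n = 3). They also overlapped for ATF4 (176 ± 23.3 and 174 ± 3.36 FPKM), but not for TRIB3 and CEBPB. Why counts and FPKM differ was not tested. CEBPG, another bZIP partner of ATF4, was at −0.21 (SE 0.0536, edgeR adjusted p = 0.0881). NFE2L2 (−0.05, edgeR adjusted p = 0.572) and MYC (0.01, edgeR adjusted p = 0.948) were not called.

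Glutathione turnover uses the cysteine that SLC7A11 brings in. Against 0.715% of all features called lower, 2 of its 6 listed genes fell. These were GGCT (−0.50, edgeR adjusted p = 0.00431) and CHAC1 (−0.29, edgeR adjusted p = 0.00615), both of which act in the breakdown of glutathione. CHAC2, which also breaks glutathione down, was at 0.14 (SE 0.149, edgeR adjusted p = 0.701). The genes of its synthesis, GCLC (0.08), GCLM (0.05) and GSS (−0.04), had edgeR adjusted p-values from 0.598 to 0.750.

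**Figure D5:**
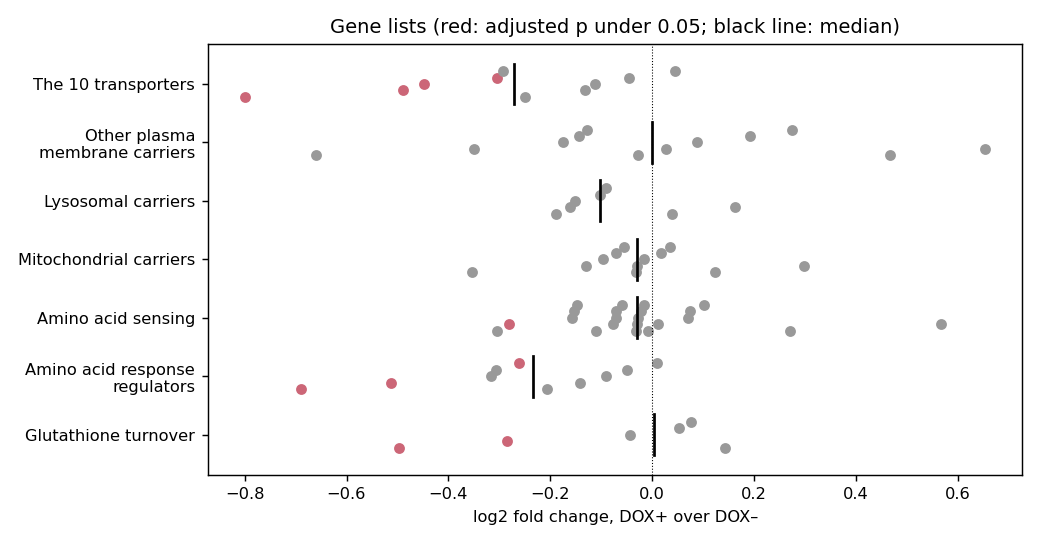
Log2 fold change, DOX+ over DOX–, of each tested gene of 7 lists (points; red, adjusted p under 0.05) with the median of each list (black line). The 10 carriers have a median of −0.27 and the 3 lists of other carriers hold no red point. Of all features tested, 1.12% were called in either direction.

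For each of the 4 carriers that fell, the 3 genes with the most similar profile over the 6 libraries were found by the root mean square distance of log2 CPM, each relative to its DOX– mean. SLC7A5 was closest to PHGDH, the first enzyme of serine synthesis (distance 0.0278), then to COL3A1 (0.0303) and COL1A2 (0.0425), chains of types III and I collagen. SLC6A9 was closest to COL1A1 (0.0866), PCK2, mitochondrial phosphoenolpyruvate carboxykinase (0.0883), and ASNS, asparagine synthetase (0.123). SLC1A5 was closest to MARS, methionyl-tRNA synthetase (0.0262), FIBP (0.0272) and PPIF (0.0280), and SLC3A2 to SEMA3B (0.0270), AVPI1 (0.0376) and PHGDH (0.0404). The measure rests on 6 libraries in 2 groups, so that a like fold change alone brings genes close.

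SLC7A5 lies on the same chromosome arm as the hairpin's target: the SLC7A5 gene ends 513 kb before ZNF469 begins. BANP, the 1 tested gene that lies wholly between them, had a log2 fold change of −0.08 (edgeR adjusted p = 0.747).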

How the data were processed

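Poly(A)-selected RNA of 6 libraries was sequenced in read pairs of 150 bp. The authors ran HISAT2 (alignment to GRCh38) and StringTie on quality-filtered reads, with versions not given in the sources used here. They deposited a whole-number count without normalization and an FPKM value per feature and library; FPKM was used for levels only. Stray text lines (17) were dropped. Groups came from the sample titles. Counts were tested with edgeR 4.0.16 in R 4.3.3 (filterByExpr with a minimum count of 10, TMM, quasi-likelihood test without covariates, Benjamini-Hochberg adjustment over 13991 features). The SE of a log2 fold change is its size over the square root of F, and intervals use the t distribution. Coordinates and lengths came from GENCODE 44.

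The carriers and gene lists were chosen with earlier results of these data known. Named genes were the carriers, ZNF469, list genes past an adjusted p of 0.05, some of the 4 further genes per list with the highest mean count, overlapping or neighbouring genes, and the 3 nearest profiles of each called carrier. Among those not described above were SLC38A7 (log2 fold change −0.09), the lysosomal carrier with the highest mean count. Likewise SFXN3 (0.02) and SLC25A39 (−0.03), the mitochondrial carriers with the highest mean counts, were not described. SLC7A5P1, SLC7A5P2 and SLC7A11-AS1, which resemble or overlap carriers, were looked up by symbol and matched no row of the count table. Whether reads from them were counted for the carriers was not tested. Alternatives were other scalings and filters, DESeq2 1.42.0, limma-voom (limma 3.58.1), an adjusted p under 0.01, the replicate block, lowess trends (span 0.3) on length or GC content, no unannotated loci, and leaving out each library. The scripts were tested on simulated counts. The carriers had 185 to 31718 counts per library, so that counting error is relatively largest for SLC6A9 and SLC43A1.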

Additional observations from a re-analysis of the deposited data

How the results depend on the processing

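The 4 calls among the carriers (SLC7A5, SLC3A2, SLC1A5 and SLC6A9) were kept in every alternative that gave an adjusted p, and between 4 and 6 carriers were called lower and 0 higher over the 18 alternatives. The number of all features called, 156, became 290 without a filter on low counts, 479 with DESeq2, 292 with the replicate block, 324 with the GC trend removed and 73 at an adjusted p under 0.01, and ranged from 74 to 161 with 1 library left out, the lowest without DOX+ replicate 1 and followed by 82 without DOX– replicate 1, 89 without DOX– replicate 3 and 101 without DOX– replicate 2. Deviations from the group mean had correlations of −0.0241, −0.0352 and 0.0363 between same-numbered libraries. Between libraries of different number they ran from −0.0329 to 0.0583. With 3 libraries per group, these values cannot tell whether same-numbered libraries were handled together. The replicate block added SLC7A11 (edgeR adjusted p = 0.0219). Fold changes that turned sign were those of SLC38A2 with the GC trend removed (−0.0289) and SLC43A1 with the GC trend removed (0.0041), without DOX– replicate 3 (0.05) and without DOX+ replicate 2 (0.0880), within a range of −0.133 to 0.0880 with 1 library left out. The cause was not tested. Library size scaling moved the split of all calls from 100 lower and 56 higher to 77 lower and 88 higher, with the same 4 carriers called. Whether depth limits any carrier was not tested.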
